A study of Rattus norvegicus with 8 samples.

Results

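The serotonin receptor genes described here are *Htr1a*, *Htr1b*, *Htr1f*, *Htr2a*, *Htr2c*, *Htr3a*, *Htr4*, *Htr5b*, *Htr6* and *Htr7*. They were found by their NCBI GeneID among the 22601 genes listed for each rat hippocampal library, and all 10 were present and passed the filter on low values (a mean of at least 0.1 FPKM over the 8 libraries). FPKM counts fragments for each kilobase of a transcript and is scaled by the mapped fragments of the library, so that levels of different genes can be set side by side. A further 4 serotonin receptor genes in the files, *Htr1d*, *Htr2b*, *Htr3b* and *Htr5a*, were not members and are given with the rest of the serotonin pathway.

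Serotonin reaches the hippocampus from neurons of the raphe nuclei, and the receiving cells respond through receptors of several families. The *Htr1* receptors act through Gi and Go proteins and lower cyclic AMP, the *Htr2* receptors act through Gq and phospholipase C, and the products of *Htr4*, *Htr6* and *Htr7* act through Gs and raise cyclic AMP, while *Htr3a* encodes the subunit of a cation channel. In rodents *Htr1a* is known for its high level in pyramidal and granule cells of the hippocampus, *Htr1b* and *Htr6* for their expression in the striatum, and *Htr2c* for its very high level in the choroid plexus.

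RNA was measured in the hippocampus of 8 wild-type Wistar rats of 180 to 220 g, with 1 library per rat. The 3 Con. rats received saline in place of PTZ and then the vehicle of Q808. The 3 PTZ rats were kindled with pentylenetetrazole, a convulsant that blocks GABA-A receptors, at 35 mg/kg every 48 h for 28 days, 14 injections in all, with 60 mg/kg on the last day, and then received the vehicle for 28 days. The 2 Q808 rats were kindled in the same way and then received the anticonvulsant compound Q808 at 30 mg/kg daily by gavage for 28 days. The PTZ and Q808 rats had a last dose of PTZ after this period, and their tissue was taken after that seizure test. The interval between them is not given. The Con. rats differ from both groups in that dose too. Libraries are named by group and number, Con.-1 to Con.-3, PTZ-1 to PTZ-3, Q808-1 and Q808-2.

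The libraries differed in their tissue markers. The mean of 6 striatum markers on log2(FPKM + 0.1) ran from 6.12 to 7.48 in Con.-3, PTZ-3 and Q808-1 and from 1.92 to 2.75 elsewhere, so that each treatment group held 1 library with high striatum markers. The mean of the 6 dentate granule cell markers was between 2.17 and 2.40 in these 3 libraries and between 3.45 and 3.87 in the other 5, that of the 4 CA1 pyramidal cell markers between 2.25 and 2.99 and between 3.61 and 3.90, and that of the 6 oligodendrocyte markers between 8.77 and 9.64 and between 7.42 and 8.14. The choroid plexus markers varied across both sets, and their most abundant gene, *Ttr*, ranged from 87.4 to 6301 FPKM. In these bulk samples a smaller share of a cell type and less RNA of a gene per cell cannot be told apart. The depth of a library relative to Con.-1 lay between 0.854 and 1.19, as recovered from the steps of the FPKM values.

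To show where the receptor genes that the results turn on begin, the 120 bases before the RefSeq start of 3 of them are given, from the GRCr8 assembly, 5′ to 3′ on the strand of the gene. *Htr1f* is shown because it was the only receptor called between Con. and PTZ, and *Htr5b* and *Htr6* because they lay far apart, in opposite directions, between libraries with high and low striatum markers. Capitals mark a GC box.
Htr1f, chr11:16090666-16090785, minus strand: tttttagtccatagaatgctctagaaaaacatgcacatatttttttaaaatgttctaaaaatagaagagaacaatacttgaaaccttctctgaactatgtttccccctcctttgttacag
Htr5b, chr13:35252587-35252706, minus strand: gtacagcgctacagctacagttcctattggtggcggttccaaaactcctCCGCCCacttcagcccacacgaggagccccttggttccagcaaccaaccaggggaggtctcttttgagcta
Htr6, chr5:156595148-156595267, minus strand: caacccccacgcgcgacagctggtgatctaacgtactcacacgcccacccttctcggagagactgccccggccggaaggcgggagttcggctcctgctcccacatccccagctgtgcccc

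Promoter windows were matched for 6 of the 10 receptor genes, *Htr1b*, *Htr1f*, *Htr2c*, *Htr5b*, *Htr6* and *Htr7*. Over the 250 bases before the start, G and C made up 27.2% in *Htr1f*, 56.8% in *Htr5b* and 69.2% in *Htr6*, against a median of 52.0% over 27457 genes. The window of *Htr1f* was thus rich in A and T. The RefSeq record of *Htr1f* spans only 1400 bases. Whether transcription begins at its start was not tested, so this window may not be a promoter. Of the 6 windows, read on both strands, the GC box GGGCGG was found in *Htr5b* alone, while 32.4% of all windows hold it. The TATA box TATAAA was found in none, against 13.1% of all windows. The E-box CANNTG was found in *Htr6* and *Htr2c*, against 65.2%, the short site TGACG of the cyclic AMP response element in *Htr7*, against 19.0%, and the AP-1 motif TGANTCA in none, against 6.4%. The full cyclic AMP response element TGACGTCA contains that short site and was found in none of them, against 1.7%.

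Over the 8 libraries *Htr2c* had the highest level and *Htr1f* the lowest. The geometric means were 22.3 FPKM for *Htr2c*, 8.59 for *Htr1b*, 4.80 for *Htr1a*, 4.60 for *Htr3a*, 2.61 for *Htr2a*, 2.10 for *Htr6*, 1.93 for *Htr7*, 1.87 for *Htr4*, 1.75 for *Htr5b* and 0.994 for *Htr1f*. The step from *Htr2c* to *Htr1b* and that from *Htr3a* to *Htr2a* were larger than the SD of either gene over the libraries on the log2 scale. All other neighbours in this order lay within that spread. The spread itself was uneven, with an SD of 0.47 (log2 of FPKM) for *Htr3a*, 0.59 for *Htr1f*, 1.91 for *Htr1a* and 2.57 for *Htr5b*. *Htr2c* made up at most 57.1% of the summed FPKM of the 10 genes in a library, and *Htr1a* between 1.21% and 26.2%.

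**Figure D1:**
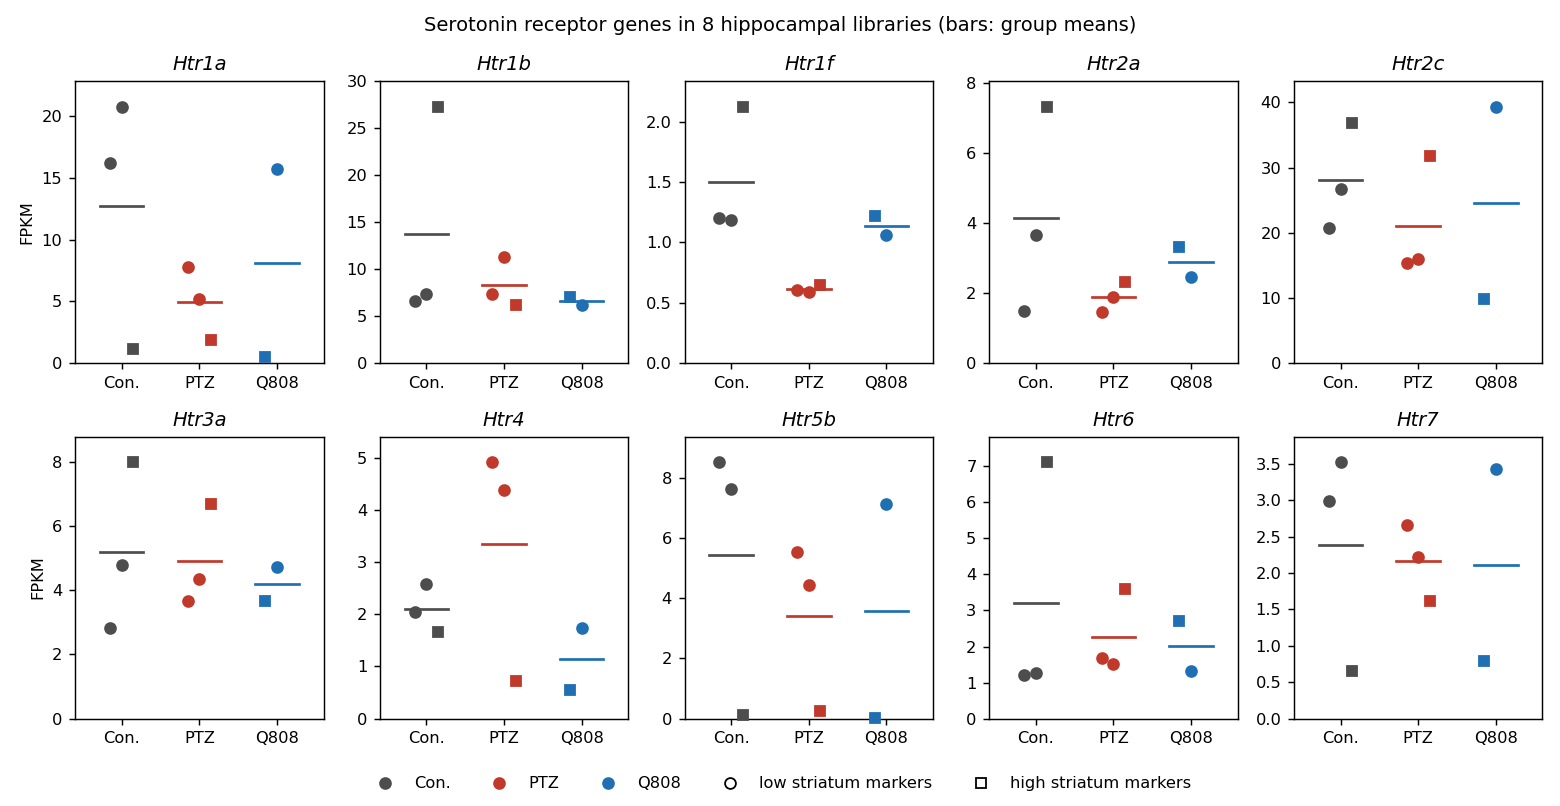
FPKM (y axes, starting at 0) of the 10 serotonin receptor genes in each library of Con. (3), PTZ (3) and Q808 (2); horizontal bars are group means, squares are the 3 libraries with high striatum markers and circles the other 5. In *Htr1a*, *Htr4*, *Htr5b* and *Htr7* all squares lie below all circles, in *Htr6* all lie above, and in *Htr1f* the 3 PTZ libraries (0.587 to 0.646 FPKM) lie below all others.

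The comparison of PTZ with Con. asked which genes differed in the hippocampus of kindled rats. Of the 10 receptor genes only *Htr1f* was called, and it was lower in the PTZ group. A call needed an unadjusted p under 0.05 together with a fold change above 1.5, and 2.53% of the 15593 tested genes met both (395 genes, 264 higher and 131 lower), 0.840% with the direction of *Htr1f*. No gene of this comparison had an adjusted p under 0.05 with limma, and 589 had an unadjusted p under 0.05. The call is of a single gene and is no result about the family. The median log2 fold change of the 10 receptor genes was -0.34, beside -0.04 over all tested genes.

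*Htr1f* (GeneID 60448) encodes the 5-HT1F receptor, a Gi-coupled receptor. Its level was 1.20, 1.18 and 2.12 FPKM in Con.-1, Con.-2 and Con.-3, then 0.603, 0.587 and 0.646 FPKM in the 3 PTZ libraries, and 1.21 and 1.06 FPKM in the 2 Q808 libraries. The 3 PTZ libraries were below every other library, and Con.-3 was the highest of all. The group means were 1.5 ± 0.54 FPKM in Con. (SD, n = 3), 0.612 ± 0.031 in PTZ (SD, n = 3) and 1.14 ± 0.11 in Q808 (SD, n = 2). PTZ was 2.18-fold lower than Con. (log2 fold change -1.12, SE 0.32, limma adjusted p = 0.999). An exact two-sided permutation test over the 6 libraries gave p = 0.1, the smallest that 3 against 3 libraries allow. Groups that did not overlap, with PTZ lower, were found in 5.03% of the tested genes, and *Htr1f* was the only receptor among them.

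The number of fragments behind these values was small. *Htr1f* had 24, 28 and 42 fragments in the Con. libraries, 13, 13 and 11 in the PTZ libraries and 21 and 22 in the Q808 libraries. For PTZ-1 the exact 95% Poisson interval ran from 0.321 to 1.03 FPKM, and for Con.-1 from 0.771 to 1.79 FPKM. These intervals overlap, and they cover counting error only. Those of Con.-3, from 1.53 to 2.87 FPKM, and PTZ-3, from 0.322 to 1.16 FPKM, do not overlap.

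**Figure D2:**
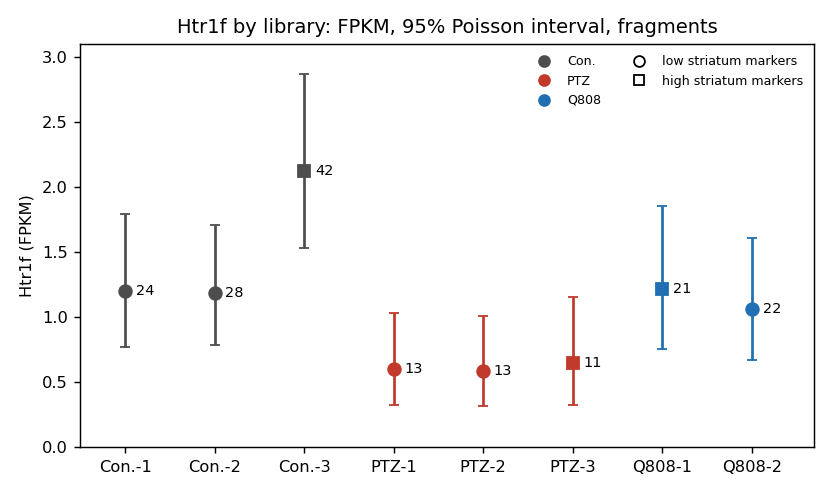
*Htr1f* in FPKM (y axis, starting at 0) in each of the 8 libraries, with exact 95% Poisson intervals of its fragments as error bars and the number of fragments beside each point; squares are libraries with high striatum markers. The 3 PTZ libraries rest on 11 to 13 fragments and have the lowest values, and the other 5 rest on 21 to 42.

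The lower level of *Htr1f* was seen in both sets of libraries. Among libraries with low striatum markers the log2 difference of PTZ from Con. was -0.90, and between PTZ-3 and Con.-3, which have high striatum markers, it was -1.58. The call was made in every alternative run for this comparison, with log2 fold changes between -1.35 and -0.61 and a limma adjusted p between 0.184 and 1.00. Without Con.-3, the library with the highest level, the log2 fold change was -0.86 (limma adjusted p = 0.770).

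The 3 tested genes whose centred log2 levels followed *Htr1f* most closely over the 8 libraries, out of 12563 compared, were *Slc17a8*, a vesicular glutamate transporter, with a mean absolute difference of 0.16, *Gpr63*, an orphan receptor, with 0.18, and *Mpp7* with 0.19. These distances describe 8 libraries and carry no test.

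*Htr2a* (GeneID 29595), a Gq-coupled receptor of cortical pyramidal cells, came next in size. Its level was 1.48, 3.66 and 7.33 FPKM in the Con. libraries, 1.45, 1.90 and 2.31 in the PTZ libraries, and 3.31 and 2.47 in the Q808 libraries. The Con. and PTZ groups overlapped, since Con.-1 lay within the PTZ range. The log2 fold change was -0.85 (SE 0.54, limma adjusted p = 0.999), so the difference did not pass the test. With the replicate number as a block *Htr2a* was called as well (same log2 fold change, SE 0.34, limma adjusted p = 0.785), beside 3.95% of all tested genes.

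The remaining receptor genes showed no call between PTZ and Con. over all 6 libraries. *Htr2c* had a log2 fold change of -0.46 (SE 0.33), *Htr1b* of -0.45 (SE 0.55), *Htr4* of 0.29 (SE 0.68) and *Htr7* of 0.13 (SE 0.60), with a limma adjusted p of 0.999 for each. *Htr1a* and *Htr5b* had the widest errors, with log2 fold changes of -0.78 (SE 1.09) and -0.24 (SE 1.63). For *Htr3a* and *Htr6* the fitted log2 values were -0.01 and -0.09, and the sign of *Htr3a* changed with quantile or median ratio scaling.

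When only the libraries with low striatum markers were fitted, 2 Con. against 2 PTZ, 4 of the 10 receptor genes were called, beside 9.81% of the tested genes. An exact two-sided permutation test gave p = 0.333 for each of the 4, the smallest that 2 against 2 libraries allow. Other tissue markers still differed between these groups. The dentate granule cell mean was 3.87 and 3.84 in Con. and 3.45 and 3.54 in PTZ. The CA1 pyramidal cell mean went the other way, 3.73 and 3.84 in Con. and 3.90 and 3.85 in PTZ. The CA3 pyramidal cell mean was 2.15 and 2.20 against 1.93 and 1.66. The choroid plexus mean was 3.17 and 3.38 against 1.28 and 0.80, and the neocortex mean 2.10 and 2.32 against 2.70 and 3.04. The mean of claustrum and deep cortical layers was 1.45 and 1.90 against 2.44 and 3.01. The means of thalamus, interneurons and oligodendrocytes overlapped. *Htr1a* (GeneID 24473), the main inhibitory serotonin receptor of hippocampal principal cells, was at 16.2 and 20.8 FPKM in Con.-1 and Con.-2 and at 7.78 and 5.18 FPKM in PTZ-1 and PTZ-2. It was lower in PTZ by 1.52 on the log2 scale (log2 fold change -1.52, SE 0.23, limma adjusted p = 0.0629). In the libraries with high striatum markers it went the other way, 1.12 FPKM in Con.-3 and 1.88 in PTZ-3, from 20 and 29 fragments. The difference between these directions was not tested, as the second pair holds 1 rat of each group.

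*Htr4* (GeneID 25324), a Gs-coupled receptor, was at 2.04 and 2.58 FPKM in Con.-1 and Con.-2 and at 4.92 and 4.38 FPKM in PTZ-1 and PTZ-2. In these 4 libraries it was higher in PTZ (log2 fold change 0.99, SE 0.21, limma adjusted p = 0.114). Between PTZ-3, at 0.722 FPKM, and Con.-3, at 1.67 FPKM, the difference had the opposite sign.

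*Htr5b* (GeneID 79247), a receptor with an intact gene in rodents, was at 8.52 and 7.63 FPKM in Con.-1 and Con.-2 and at 5.53 and 4.45 FPKM in PTZ-1 and PTZ-2 (log2 fold change -0.69, SE 0.17, limma adjusted p = 0.150). Between PTZ-3, at 0.260 FPKM, and Con.-3, at 0.128 FPKM, from 7 and 4 fragments, the difference had the opposite sign. *Htr1f* was the fourth gene called, with a log2 fold change of -0.90 (SE 0.27, limma adjusted p = 0.184). *Htr2c* passed the p threshold in this fit, but its change, -0.58 on the log2 scale, fell just short of 1.5-fold. In this fit 140 of all tested genes had an adjusted p under 0.05, and no receptor gene was among them.

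**Figure D3:**
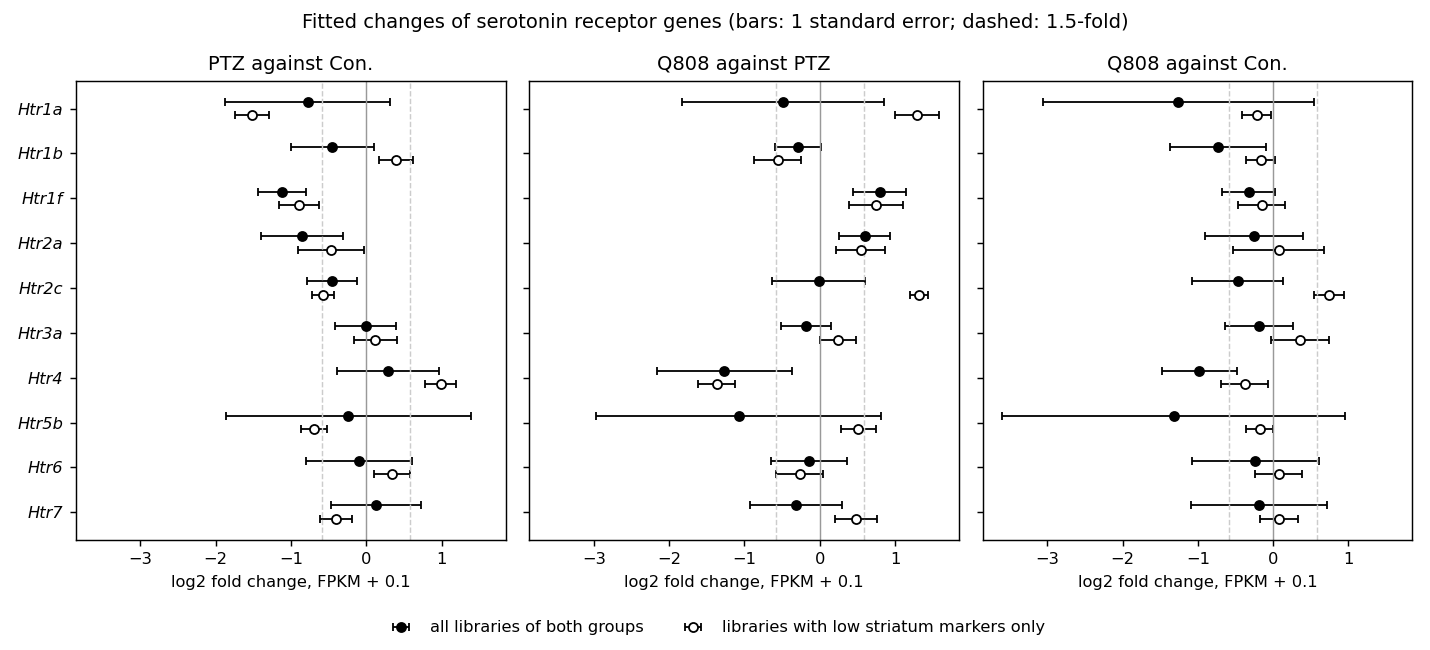
Log2 fold changes on FPKM + 0.1 (x axes) of the 10 receptor genes in the 3 comparisons; filled circles use all libraries of both groups, open circles those with low striatum markers, bars are 1 standard error from limma, and dashed lines mark 1.5-fold. With all libraries only *Htr1f* in PTZ against Con. was called, and the errors of *Htr1a* and *Htr5b* are the widest; with 1 Q808 library left, the open circles of the Q808 comparisons take their error from the other group.

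The comparison of Q808 with PTZ asked what differed after treatment of kindled rats. No receptor gene was called over all 5 libraries, while 1.92% of all tested genes were (300 genes). *Htr1f* was higher in Q808 than in each PTZ library, at 1.21 and 1.06 FPKM against at most 0.646 FPKM, and *Htr2a*, at 3.31 and 2.47 FPKM against at most 2.31 FPKM, also did not overlap. Groups that did not overlap, with Q808 higher, were found in 10.6% of the tested genes. The log2 fold change was 0.80 for *Htr1f* (SE 0.35, limma adjusted p = 0.952) and 0.60 for *Htr2a* (SE 0.34, limma adjusted p = 0.952). The exact two-sided permutation test gave p = 0.2 for each of them, the smallest that 2 against 3 libraries allow. *Htr1f* was called in 3 alternatives, with no filter on low values, with all 3 groups in a fit and without the trend in limma, with adjusted p between 0.891 and 0.960. Both comparisons share the 3 PTZ libraries, so that a low value in PTZ enters each of them.

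The level of *Htr4* was 0.555 and 1.74 FPKM in the Q808 libraries, against 4.92, 4.38 and 0.722 FPKM in the PTZ libraries. The groups overlapped through PTZ-3 (log2 fold change -1.27, SE 0.90, limma adjusted p = 0.952). Without PTZ-3, *Htr4* was called lower in Q808 (log2 fold change -2.11, limma adjusted p = 0.428). In that fit 1569 of all 15593 tested genes were called, against 300 with all libraries. Among libraries with low striatum markers, where Q808-2 is the only Q808 library and was assumed to vary like the PTZ libraries, *Htr4* was lower as well (log2 fold change -1.37, SE 0.25, limma adjusted p = 0.288). It was the only receptor gene called lower there.

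In the same fit *Htr1a* and *Htr2c* were called higher in Q808, so that 3 receptor genes were called beside 9.26% of all tested genes. *Htr1a* was at 15.7 FPKM in Q808-2, above the 7.78 and 5.18 FPKM of PTZ-1 and PTZ-2 and just below the 16.2 and 20.8 FPKM of Con.-1 and Con.-2 (log2 fold change 1.30, SE 0.29, limma adjusted p = 0.320). Q808-1, which has high striatum markers, was at 0.511 FPKM, from 8 fragments, the lowest value of all libraries. The Q808 libraries thus lay far apart in *Htr1a*.

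*Htr2c* (GeneID 25187), the Gq-coupled receptor with the highest level here, was at 9.79 and 39.3 FPKM in Q808-1 and Q808-2, the lowest and the highest of the 8 libraries. Con.-1, Con.-2 and Con.-3 were at 20.6, 26.7 and 36.8 FPKM, and PTZ-1, PTZ-2 and PTZ-3 at 15.3, 16.0 and 31.8 FPKM. Over all libraries Q808 and PTZ had nearly the same mean log2 level (log2 fold change -0.01, SE 0.62, limma adjusted p = 0.997). Among libraries with low striatum markers it was higher in Q808 (log2 fold change 1.32, SE 0.12, limma adjusted p = 0.160).

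The choroid plexus markers moved with *Htr2c* in these libraries. Their mean on log2(FPKM + 0.1), over 7 genes of which *Otx2* was at 0 in every library, was 4.67 in Q808-2, 3.17 and 3.38 in Con.-1 and Con.-2, and 1.28 and 0.80 in PTZ-1 and PTZ-2. *Ttr*, which encodes the thyroxine carrier made by this epithelium, was at 6301 FPKM in Q808-2, at 2495 and 2462 in Con.-1 and Con.-2, and at 399 and 271 in PTZ-1 and PTZ-2. In the libraries with high striatum markers the order was another, since Con.-3 had the lowest choroid plexus mean, 0.22, and 36.8 FPKM of *Htr2c*. An alternative added after the data were seen took the choroid plexus mean as a covariate, over all libraries of Q808 and PTZ. In it the log2 fold change of *Htr2c* between Q808 and PTZ was -0.80 (SE 0.33, limma adjusted p = 0.803). Without the covariate it was -0.01 over the same libraries. The part of choroid plexus RNA in the level of *Htr2c* was not tested beyond this fit.

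**Figure D4:**
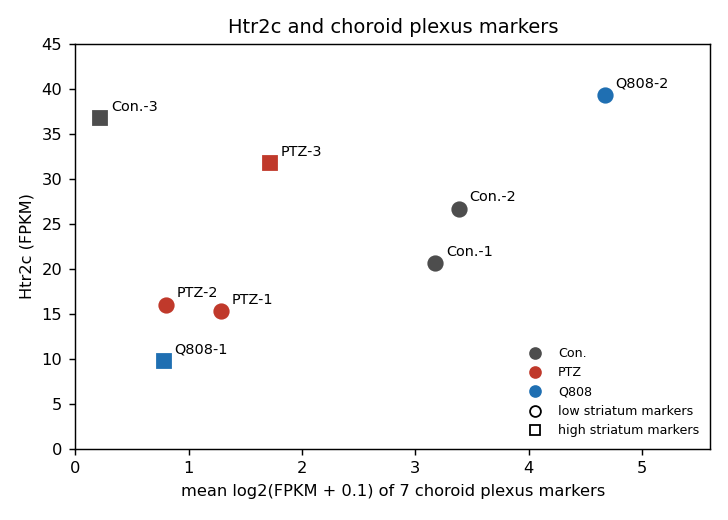
*Htr2c* in FPKM (y axis) against the mean log2(FPKM + 0.1) of 7 choroid plexus markers (x axis), 1 point per library; circles are the 5 libraries with low striatum markers and squares the other 3. Among the circles PTZ-1 and PTZ-2 are low on both axes (15.3 and 16.0 FPKM) and Q808-2 is high on both (39.3 FPKM), while the square of Con.-3 is high in *Htr2c* (36.8 FPKM) with the lowest marker mean.

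The comparison of Q808 with Con. gave no call among the receptor genes over all 5 libraries, while 3.46% of the tested genes were called (540 genes). The largest log2 fold changes were -1.32 for *Htr5b* (SE 2.28), -1.26 for *Htr1a* (SE 1.80) and -0.98 for *Htr4* (SE 0.50), with the limma adjusted p from 0.901 to 0.923. No receptor gene had groups that did not overlap, against 20.0% of all tested genes. *Htr1f* differed by a log2 value of -0.32 (SE 0.35, limma adjusted p = 0.901). Without the libraries with high striatum markers, *Htr2c* was called higher in Q808-2 than in Con.-1 and Con.-2 (log2 fold change 0.74, SE 0.20, limma adjusted p = 0.763), beside 4.71% of all tested genes.

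The libraries were also compared by their striatum markers, across the treatment groups. Con.-3, PTZ-3 and Q808-1 were all below the other 5 libraries in *Htr1a*, *Htr4*, *Htr5b* and *Htr7*, and all above them in *Htr6*, and the other 5 receptor genes overlapped. Of all 15593 tested genes 9.59% lay apart and lower and 15.2% apart and higher, so that 4 of 10 lower is to be read against the first share and 1 of 10 higher against the second. Because the sets were made from measured markers, the levels are given as a description with no test.

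*Htr5b* showed the widest gap. It was at 0.128, 0.260 and 0.0365 FPKM in Con.-3, PTZ-3 and Q808-1, from 4, 7 and 1 fragments, and between 4.45 and 8.52 FPKM in the other 5 libraries, from 156 to 286 fragments each. The single fragment of Q808-1 has an exact 95% interval up to 0.204 FPKM. Summed over libraries and corrected for depth, the libraries with low striatum markers held 47.3 times as much (95% interval by counting 27.0 to 91.8, from 1133 against 12 fragments). That interval covers counting error only and leaves out the spread between rats. On log2(FPKM + 0.1) the difference was 29.4-fold, a size that moves with the pseudocount.

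*Htr1a* came next, at 1.12, 1.88 and 0.511 FPKM in Con.-3, PTZ-3 and Q808-1 and between 5.18 and 20.8 FPKM in the other 5 libraries. The mean level was 10.3-fold lower on log2(FPKM + 0.1), 1.17 against 13.1 FPKM. The difference within Con. was -3.92 on the log2 scale, within PTZ -1.70 and within Q808 -4.70.

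The Gs-coupled receptors went in both directions. *Htr7* (GeneID 65032), a receptor of thalamus and hippocampus, was at 0.649, 1.62 and 0.796 FPKM in the 3 libraries with high striatum markers and between 2.22 and 3.52 FPKM in the other 5, a 2.88-fold difference. *Htr4* was at 1.67, 0.722 and 0.555 FPKM against 1.74 to 4.92 FPKM, a 3.03-fold difference, with Con.-3 just below Q808-2. *Htr6* (GeneID 64354), a receptor abundant in striatal neurons, was at 7.11, 3.60 and 2.72 FPKM against 1.20 to 1.68 FPKM, 2.83-fold higher.

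*Htr1b* (GeneID 25075), a receptor of axon terminals that is abundant in striatal projection neurons, did not follow the division. It was at 27.3 FPKM in Con.-3, but at 6.16 and 6.98 FPKM in PTZ-3 and Q808-1, within the 6.18 to 11.3 FPKM of the other libraries or just below it. *Htr3a* (GeneID 79246), the channel subunit found in interneurons, had its highest values in Con.-3 and PTZ-3, 7.99 and 6.68 FPKM, while Q808-1 was at 3.68 FPKM, within the range of 2.82 to 4.78 FPKM of the other 5. Within each of the 3 groups, the library with high striatum markers was above the others' mean in *Htr6*, *Htr2a* and *Htr1f*, and below it in *Htr1a*, *Htr4*, *Htr5b* and *Htr7*.

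**Figure D5:**
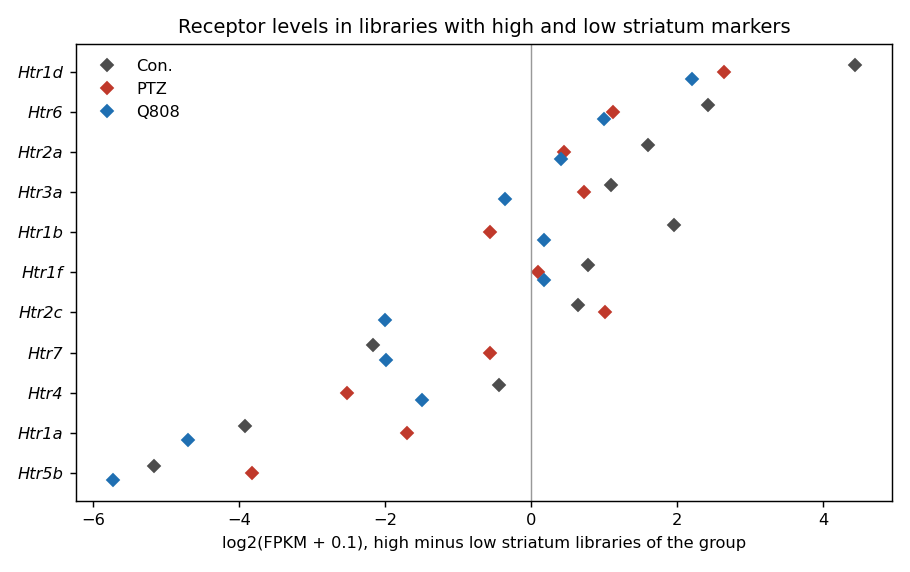
Difference in log2(FPKM + 0.1) (x axis) between the library with high striatum markers and the mean of the other libraries of its group, for the 10 receptor genes and *Htr1d*, with 1 diamond each for Con., PTZ and Q808. All diamonds of *Htr1a*, *Htr4*, *Htr5b* and *Htr7* lie below 0 and all of *Htr6*, *Htr2a*, *Htr1f* and *Htr1d* above, with *Htr5b* the lowest and *Htr1d* the highest.

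The 3 genes closest in pattern to each of the other receptor genes apart from *Htr3a* over the 8 libraries were found in the same way. For *Htr1a* they were *Bhlhe22*, *Wnt4* and *Npy2r* (mean absolute log2 differences of 0.36 to 0.43), for *Htr5b* *Slc9a4*, *Chst9* and *Shisa6* (0.31 to 0.40), for *Htr7* *Pip5k1b*, *Rtn4r* and *Gpc4* (0.08 to 0.10) and for *Htr4* *Slitrk3*, *Rtn4rl1* and *Fgf18* (0.18 to 0.26). For *Htr6* they were *Foxp1*, *Cpne5* and *Adissp* (0.14). For *Htr1b* they were *Dusp14*, *St8sia3* and *Rtl5* (0.20 to 0.25), for *Htr2a* *C14h4orf50*, *Tmem132e* and *Otof* (0.14 to 0.23) and for *Htr2c* *Chchd4*, *Myo5b* and *Ccdc96* (0.21 to 0.22).

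The other genes of serotonin signalling numbered 48, of which 44 passed the filter. Between PTZ and Con. 1 of 44 was called, beside 2.53% of all tested genes, which is no result about the pathway. It was *Gch1*, which encodes the first enzyme of tetrahydrobiopterin synthesis, the cofactor of tryptophan hydroxylase. *Gch1* was at 0.346, 0.349 and 0.558 FPKM in the Con. libraries, at 0.767, 1.12 and 0.648 FPKM in the PTZ libraries and at 1.04 and 0.867 FPKM in the Q808 libraries. Its log2 fold change was 0.86 in PTZ against Con. (SE 0.35, limma adjusted p = 0.999) and 1.04 in Q808 against Con. (SE 0.35, limma adjusted p = 0.901), and these share the Con. libraries. In PTZ against Con. *Gch1* was called in 9 of 18 alternatives, with log2 fold changes from 0.38 to 1.20. Among the alternatives that lost the call was the replicate block (log2 fold change 0.86, limma adjusted p = 0.785). Others were the fits without any 1 of Con.-1, Con.-2, PTZ-1 and PTZ-2 (0.66 to 0.91), and this list is not complete. In Q808 against Con. *Gch1* was called in 10 of 17 alternatives, with log2 fold changes from 0.46 to 1.23. The alternatives with no call included those without any 1 of Con.-1, Con.-2, Q808-1 and Q808-2 (0.93 to 1.16).

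Between Q808 and Con. 2 of 44 were called, both higher, beside 3.46% of all tested genes. Of those 540 genes 479 were higher too, so these calls are no result about the pathway. Beside *Gch1* the call was of *Slc18a1*, a vesicular monoamine transporter, with a log2 fold change of 0.90 (SE 0.31, limma adjusted p = 0.901). *Slc18a1* was called in 10 of 18 alternatives, with log2 fold changes from 0.51 to 1.19. The alternatives with no call included the replicate block (0.95) and the fit without the libraries with high striatum markers (0.66). They also included the fits without any 1 of Con.-1, Con.-2 and Q808-1 (0.61 to 0.89). None of the 44 was called between Q808 and PTZ with limma, and none had an unadjusted p under 0.05 there. None of the genes for breakdown, *Maoa*, *Maob* and *Aldh2*, was called in any of the 3 comparisons. Of the raphe markers, the serotonin transporter *Slc6a4* was at most 0.0319 FPKM and *Fev* at most 0.0398 FPKM, and the hydroxylase *Tph2* lay between 0.658 and 1.80 FPKM.

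Of the receptor genes outside the 10, *Htr1d* and *Htr5a* were tested and gave no call in any comparison over all libraries. *Htr5a* was between 1.24 and 3.60 FPKM. *Htr1d* was at 3.05, 1.21 and 0.748 FPKM in Con.-3, PTZ-3 and Q808-1 and between 0.0216 and 0.180 FPKM in the other 5 libraries, 8.62-fold higher on log2(FPKM + 0.1), on the side of *Htr6*. *Htr2b* and *Htr3b* stayed at or below 0.0454 FPKM and were not tested.

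Of the 44 signalling genes, 7 lay apart and higher in the libraries with high striatum markers and 10 apart and lower, beside 15.2% and 9.59% of all tested genes. Of the 8 Gi and Go effectors 4 lay apart, all lower, and the other 4 overlapped. They were *Gnaz*, which encodes a G protein subunit of the Gi family, at a mean of 13.7 against 22.3 FPKM, and the channels opened by Gi-coupled receptors, *Kcnj6* at a mean of 2.84 against 16.4 FPKM, *Kcnj3* at 9.23 against 29.7 FPKM and *Kcnj9* at 13.7 against 33.5 FPKM. They stood on the same side as *Htr1a*. The 8 Gs effectors went in both directions, with 2 higher, 4 lower and 2 overlapping. The G protein subunit *Gnal*, at 107 against 20.3 FPKM, and the adenylyl cyclase *Adcy5*, at 83.7 against 12.5 FPKM, both known from striatal neurons, were higher, as *Htr6* was. The G protein subunit *Gnas*, at 104 against 166 FPKM, and the adenylyl cyclases *Adcy1*, at 40.6 against 97.8 FPKM, *Adcy2*, at 28.4 against 43.6 FPKM, and *Adcy8*, at 1.68 against 3.62 FPKM, were lower.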

How the data were processed

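RNA-seq of 8 rat hippocampi was analysed. Reads had been trimmed by the authors with Trimmomatic, and the values they deposited are FPKM, 1 per gene, from Cufflinks; the aligner's role and the genome build are not given in the sources used here, though the submitters' processing notes name HISAT2 and Bowtie2. Groups and numbers came from the labels. Genes were named through the RefSeq table of GRCr8 (20633 of 22601). Members and lists were chosen with earlier results of these data known.

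Genes averaging 0.1 FPKM or more (15593) were tested on log2(FPKM + 0.1), a scale that understates changes of low genes, in limma 3.58.1 (R 4.3.3, empirical Bayes with trend), using only the libraries of the groups compared and Benjamini-Hochberg adjustment over all tested genes. Calls needed p under 0.05 and over 1.5-fold. Exact two-sided permutation tests over libraries used the difference of mean log2 values, with the smaller one-sided p doubled. The procedure was run on simulated data with independent normal errors and a smaller spread than in these libraries. That run does not show how the procedure performs here. FPKM steps gave whole fragments for 100.0% of tested genes (tolerance 0.01). These gave exact Poisson intervals and the voom alternative. Libraries were divided at the largest gap of the mean of 6 striatum markers, among them *Drd2*, *Adora2a* and *Ppp1r1b*. Other lists held markers of hippocampal subfields, choroid plexus, habenula, thalamus, cortex, interneurons, oligodendrocytes and raphe. Named genes were the members, called pathway genes and those of synthesis, transport and breakdown, marker lists, and for each member the 3 closest genes with a mean of at least 1 FPKM and a member range over 2-fold (those of *Htr3a* are not reported here); the channels and Gs genes were chosen after their values were seen. As deviations from group means, same-numbered PTZ and Con. libraries correlated at 0.21, 0.30 and 0.42 over genes. PTZ-1 correlated more with Con.-2 (0.32), and the pair at 0.42, PTZ-3 and Con.-3, shares high striatum markers, so these values do not show pairing. The main fits used no block, and the numbers entered only the replicate block alternative. The labels name no shared litter or day. Other steps used Python 3.11.15, scipy 1.17.1 for intervals, pandas 2.3.3, matplotlib 3.10.9 and numpy 2.4.6.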

Additional observations from a re-analysis of the deposited data

How the results depend on the processing

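Limits were set by few rats, by low fragment numbers (*Htr1f* 11 to 42, *Htr5b* 1 to 286) and by tissue markers that varied within groups; the cause of the changes below was not tested. *Htr1f* was called in PTZ against Con. in every alternative run. The number of receptor genes called in PTZ against Con. was 2 with the replicate block, 3 with the striatum mean as covariate (*Htr1a*, *Htr1f*, *Htr5b*), 4 without the libraries with high striatum markers and 3 with the choroid plexus mean as covariate (*Htr1b*, *Htr1f*, *Htr2a*), against 1. In Q808 against PTZ it was 1 with no filter, 1 with all 3 groups in a fit and 1 without the trend (*Htr1f* each time), 1 with the replicate block and 1 with the striatum covariate (*Htr4*), and 3 without the libraries with high striatum markers, against 0. In Q808 against Con. it was 1 with the replicate block (*Htr4*), 2 with the striatum covariate (*Htr4*, *Htr5b*), 1 without the libraries with high striatum markers (*Htr2c*) and 3 with the choroid plexus covariate (*Htr1a*, *Htr4*, *Htr5b*), against 0. In each of the 14 cases where the count moved, calls over all tested genes rose too, and a count of 0 can only rise. In PTZ against Con. such calls went from 395 to 616, 627, 1530 and 531, in the order above. In Q808 against PTZ they went from 300 to 1894 with the block and 552 with the striatum covariate. With all 3 groups and without the trend they were 404 and 420. In Q808 against Con. they went from 540 to 1076 with the block, 1138 with the striatum covariate and 1746 with the choroid plexus covariate. Other settings kept the count. No Q808 library has number 3, so the block takes PTZ-3 or Con.-3 out of the Q808 estimates. Its log2 values there equal those without that library, -2.11 for *Htr4* against PTZ in both. The block and the fit without PTZ-3 are therefore not separate evidence for *Htr4*. The choroid plexus covariate and voom on fragments were added after the data were seen. Without PTZ-3, calls over all tested genes rose to 1135 in PTZ against Con. and to 1569 in Q808 against PTZ. Without Con.-1 and without Con.-3 they were 339 and 639 in PTZ against Con. Leaving out each library gave 1 to 3 calls in PTZ against Con. (*Htr2a* without Con.-1, *Htr1a* without Con.-3, *Htr2c* and *Htr4* without PTZ-3, beside *Htr1f*), 0 to 2 in Q808 against PTZ (*Htr4* without PTZ-3, *Htr1a* and *Htr7* without Q808-2) and 0 to 2 in Q808 against Con. (*Htr2c* and *Htr4* without Q808-2).

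Signs changed in 30 of 390 fitted log2 values, none of them called with all libraries. Without the libraries with high striatum markers the values in PTZ against Con. were 0.39 for *Htr1b*, 0.12 for *Htr3a*, 0.34 for *Htr6* and -0.41 for *Htr7*. In Q808 against PTZ they were 1.30 for *Htr1a*, 1.32 for *Htr2c*, 0.24 for *Htr3a*, 0.51 for *Htr5b* and 0.49 for *Htr7*. In Q808 against Con. they were 0.073 for *Htr2a*, 0.74 for *Htr2c*, 0.35 for *Htr3a*, 0.075 for *Htr6* and 0.080 for *Htr7*. With the striatum covariate they were 0.12 for *Htr3a*, 0.14 for *Htr6* and -0.052 for *Htr7* in PTZ against Con., and 0.079 for *Htr1a* and 0.045 for *Htr2c* in Q808 against PTZ. With the choroid plexus covariate they were 0.32 for *Htr1a* and 1.07 for *Htr5b* in PTZ against Con. and 0.11 for *Htr6* in Q808 against PTZ. *Htr3a* in PTZ against Con. was 0.069 with quantile and 0.036 with median ratio scaling. With 2 Q808 libraries the deviations from the group mean mirror each other, so their correlations cannot show whether the numbers pair rats. In the Q808 comparisons the replicate block gave 0.32 for *Htr2c*, 0.061 for *Htr3a* and 0.23 for *Htr6* against PTZ. Against Con. the block gave 0.28 for *Htr2a*, 0.18 for *Htr3a* and 0.57 for *Htr6*. The block changed no other call of a receptor gene.

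Leaving out each library in turn, the log2 values in PTZ against Con. ran from -0.81 to 0.20 for *Htr1b*, -0.38 to 0.36 for *Htr3a*, -0.17 to 1.13 for *Htr4*, -1.96 to 1.03 for *Htr5b*, -0.52 to 0.72 for *Htr6* and -0.59 to 0.55 for *Htr7*. In Q808 against PTZ they ran from -2.83 to 1.86 for *Htr1a*, -1.01 to 0.98 for *Htr2c*, -0.36 to 0.061 for *Htr3a*, -3.94 to 1.78 for *Htr5b*, -0.64 to 0.36 for *Htr6* and -1.31 to 0.67 for *Htr7*. In Q808 against Con. they ran from -3.61 to 1.09 for *Htr1a*, -0.84 to 0.28 for *Htr2a*, -1.47 to 0.53 for *Htr2c*, -0.56 to 0.18 for *Htr3a*, -4.18 to 1.54 for *Htr5b*, -0.73 to 0.57 for *Htr6* and -1.18 to 0.80 for *Htr7*. Between the striatum sets, *Htr2c* was at -0.0026 with quantile and -0.073 with median ratio scaling, and from -0.33 to 0.62 without each library, and *Htr1b* from -0.21 to 0.86. With a pseudocount of 1 the difference was -2.72 for *Htr5b* and -0.99 for *Htr7*, and with 0.01 it was -5.76 for *Htr5b*. *Htr1a*, *Htr4*, *Htr5b*, *Htr6* and *Htr7* kept their direction throughout.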
